A study of Mus musculus with 15 samples.

Results

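The ileum of mice gavaged with a grape proanthocyanidin (PAC) fraction of low mean degree of polymerization (mDP) was compared with the ileum of mice gavaged with water alone. The comparison held 10 of the 15 mice sequenced, 5 that received low mDP PAC and 5 that received water, chosen by the treatment in their labels. All were female C57BL/6 mice, 8 weeks old per the labels, and the study's methods name the substrain as C57BL/6JOlaHsd and the diet as purified. The PAC mice received 200 mg/kg in water every 2 days for 10 days, and the control mice were gavaged with the water that dissolved the PAC. The other 5 mice received the same dose of a second grape fraction, labelled high mDP PAC and described in the methods as of medium mDP. Each library was 1 piece of whole ileal tissue from 1 healthy mouse, so that epithelium, muscle, nerve and lymphoid tissue were sequenced together and the position of the piece along the ileum was not stated. All 14386 genes that passed a filter on low counts were tested.

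PAC are chains of flavan-3-ol units, and the mDP is the average number of units in a chain. Longer chains are hardly absorbed and stay in the gut lumen, where they meet the brush border of the enterocytes. The enterocytes take up lipids, sugars, nucleosides and minerals, the last part of the small intestine recovers bile acids, and enterocytes and Paneth cells release antimicrobial proteins such as the Reg3 lectins into the lumen.

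Total estimated counts lay between 15963086 and 17903886 per mouse, with 16138 to 16364 genes listed, so depth was alike in both groups. Levels are given in FPKM, fragments corrected for gene length and sequencing depth. The tissue check held in every mouse of both groups, with Fabp6, the ileal bile acid-binding protein, at 4196 to 7630 FPKM and Slc10a2, the ileal bile acid transporter, at 94.8 to 350 FPKM. Low mDP PAC mouse 2 stood apart from the other 4 mice of its group in antimicrobial genes and in some other lists, and results are therefore given with and without it. Since whole tissue was sequenced, fewer cells of a type and less RNA per cell cannot be told apart in any result, and the p-values measure the spread between these mice.

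Most genes were alike in the PAC and water groups. The median log2 fold change (low mDP PAC less water) over all tested genes was -0.014, and the median of its size without regard to sign was 0.0866. At an adjusted p under 0.05, edgeR's quasi-likelihood test called 0 genes with all 10 mice, with the lowest adjusted p at 0.976. Without low mDP PAC mouse 2 it called 1 (0.00695%), the nucleoside transporter gene Slc28a2, at an adjusted p of 0.0157. DESeq2 called 2 genes with all mice (0.0139%), Slc28a2 and the chemokine gene Gm1987, whose near-identical copies make its reads uncertain. Without mouse 2 DESeq2 listed 4 (0.0278%), but Il18 and Meltf among them are genes in which mouse 2 lay above and the other 4 PAC mice below all water mice, so that leaving it out set their place and they are not read as calls. An unadjusted p under 0.05 in edgeR, which is used below only to describe the gene groups, was met by 520 genes (3.61% of those tested), of which 202 were higher (1.4%) and 318 lower (2.21%) with low mDP PAC. Without mouse 2 it was met by 498 genes (3.46%), 190 higher (1.32%) and 308 lower (2.14%), and 332 genes met it in both fits in the same direction. If no gene differed, a share of about 0.05 of the genes would meet this threshold. The genes that met it were therefore no excess over chance. The split by direction followed the scaling, since upper quartile scaling put 312 genes higher and 210 lower. In FPKM the mice of both groups did not overlap in 71 genes higher (0.494%) and 16 genes lower (0.111%), against 23 (0.16%) and 68 (0.473%) in TMM-scaled CPM (counts scaled to library size).

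To describe which functional groups shifted, 63 lists holding 1327 tested genes were summarised by their median log2 fold change. For 29 lists this median lay within 0.1 of 0, and 28 of these were also within 0.1 without mouse 2. It lay at least 0.2 below 0 with and without mouse 2 in 12 lists, which included those of lipid absorption, brush border enzymes, proximal small intestine and lymphoid cells. It lay at least 0.2 above 0 in both in 4 lists, those of smooth muscle, enteric neurons and glia, mesothelium and adipocytes. Leaving out mouse 2 moved the Reg family lectins the most, by 0.34. Under the other scalings, tools and filters the medians of these 16 lists kept their sign, except that of 9 neutrophil, mast cell and eosinophil genes, which ranged from -0.34 to 0.02. In 25 of the 63 lists no member had an unadjusted p under 0.05. The lists were written with earlier results of these data known. Shares of members past a threshold are therefore descriptions, also where the share of all genes is given beside them.

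**Figure D1:**
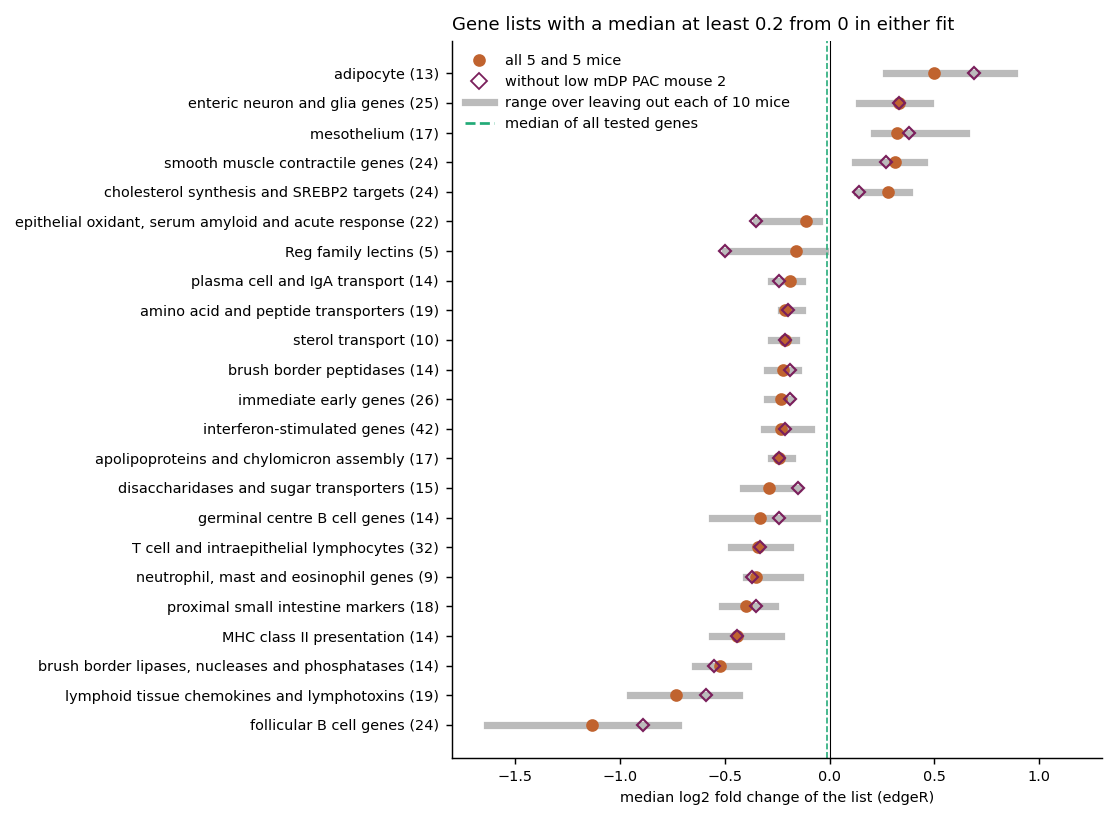
Median log2 fold change (low mDP PAC less water, edgeR) of the gene lists with a median at least 0.2 from 0 in either fit (number of genes in brackets), with all mice (points), without low mDP PAC mouse 2 (diamonds) and over leaving out each mouse (bars), against the median of all genes (dashed line). Lists of lymphoid cells and of brush border enzymes lay to the left of 0, muscle, nerve and adipocyte lists to the right, and the Reg family lectins moved from -0.16 to -0.50 without mouse 2.

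The gene with the smallest p-value in edgeR was Slc28a2 (chr2:122426357-122461152, GRCm38.p6), which encodes the concentrative nucleoside transporter CNT2 that takes up purine nucleosides at the brush border. Its level was 52.3, 49.7, 48.7, 49.8 and 65.7 FPKM in water mice 1 to 5 and 27.4, 43.4, 21.1, 34.4 and 27.6 FPKM in low mDP PAC mice 1 to 5. Every PAC mouse was below every water mouse, and mouse 2 was the PAC mouse nearest to the water group. The means were 53.2 ± 7.07 FPKM (SD, n = 5) with water and 30.8 ± 8.47 FPKM (SD, n = 5) with low mDP PAC, a level 1.78-fold lower in edgeR. The log2 fold change was -0.83 ± 0.16 (SE) with an adjusted p of 0.976 in edgeR, and DESeq2 gave it an adjusted p of 0.00244. Without mouse 2 it was -1.01 ± 0.13 (SE) with an adjusted p of 0.0157 in edgeR, and over all fits that left out 1 mouse it ranged from -1.01 to -0.73. The neighbouring near-identical gene Gm14085 was at 0.27 FPKM or less in all 10 mice.

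Of the 10 tested nucleoside and nucleobase transporters, 2 were lower at an unadjusted p under 0.05 (2.21% of all genes were) and none was higher, and the median of the list was -0.01. The other lower gene was Slc23a4, a nucleobase transporter of the rodent gut, at 12.4, 8.97, 12.2, 12.5 and 15.4 FPKM with water and 7.76, 9.32, 7.81, 10.2 and 7.82 FPKM with low mDP PAC. Water mouse 2 fell among the PAC mice, and the groups overlapped there. The log2 fold change of Slc23a4 was -0.57 ± 0.13 (SE, unadjusted p = 0.000458, edgeR), and it was -0.62 without mouse 2. Slc28a1, the pyrimidine nucleoside transporter CNT1, was at 3.09 ± 1.97 FPKM with water and 1.65 ± 1.09 with PAC (unadjusted p = 0.120, edgeR). Slc29a1, the equilibrative transporter ENT1, differed by 0.00 ± 0.09 (SE) on the log2 scale.

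Among 25 genes of purine and pyrimidine salvage and breakdown, 3 were lower at an unadjusted p under 0.05 in edgeR (12%, against 2.21% of all genes) and the median was -0.07, but without water mouse 5 the count was 1. These were Ada, adenosine deaminase, at -0.54 ± 0.20 (SE), Nt5e, the surface 5'-nucleotidase that frees adenosine from AMP, at -0.47 ± 0.16, and Gda, guanine deaminase, at -0.47 ± 0.22. Ada ranged from 46.2 to 109 FPKM in water mice and from 42.0 to 67.6 FPKM in PAC mice, so that the groups overlapped widely. Xdh, xanthine dehydrogenase, and Pnp, purine nucleoside phosphorylase, were at -0.28 ± 0.20 and -0.09 ± 0.09, with unadjusted p-values of 0.194 and 0.327 in edgeR.

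**Figure D2:**
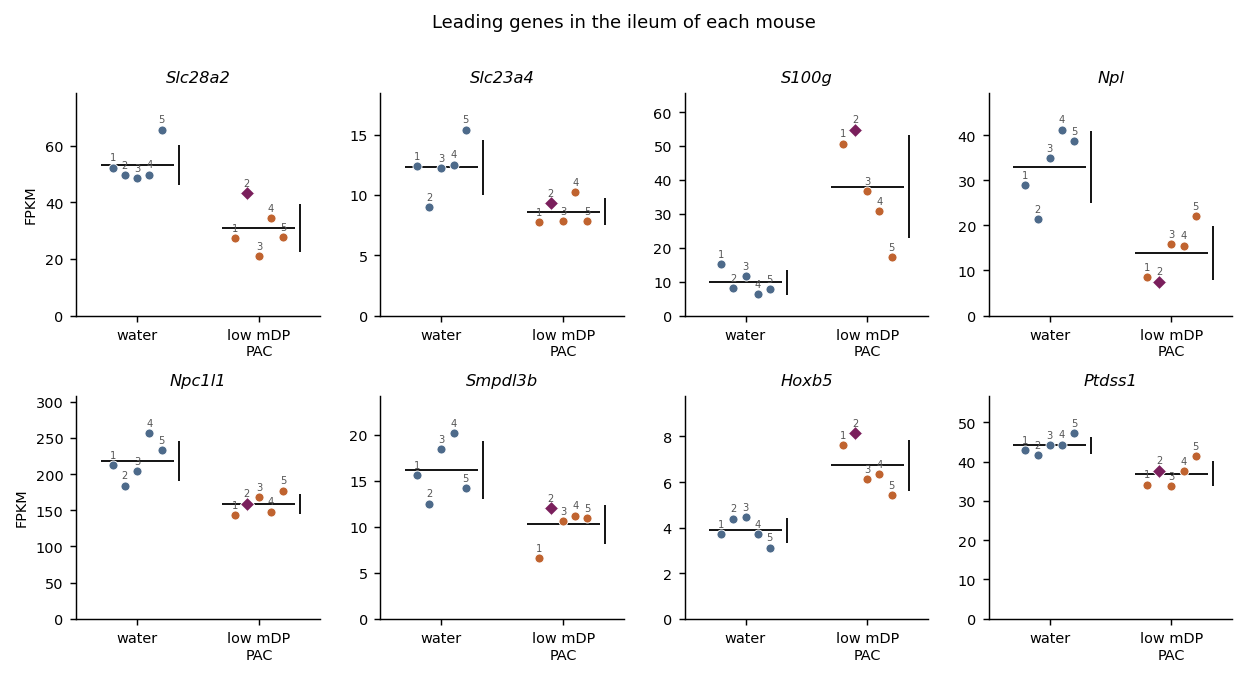
FPKM of 8 genes in each mouse (points, numbered by mouse; low mDP PAC mouse 2 is a diamond), with the group mean (line) and SD (bar). Slc28a2, S100g, Npc1l1, Smpdl3b, Hoxb5 and Ptdss1 did not overlap between the groups, while 1 or 2 mice crossed over in Slc23a4 and Npl.

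S100g (chrX:162961992-162964599, GRCm38.p6), which encodes the calcium-binding protein calbindin-D9k that carries calcium across enterocytes, had the largest difference among genes higher with PAC at a mean of at least 1 FPKM whose groups did not overlap. It was at 15.1, 8.03, 11.6, 6.20 and 7.80 FPKM in water mice and at 50.7, 54.8, 36.6, 30.8 and 17.3 FPKM in PAC mice. Every PAC mouse was above every water mouse, but PAC mouse 5 lay close to the highest water mouse. Its log2 fold change was 1.91 ± 0.49 (SE) with an unadjusted p of 0.00122 and an adjusted p of 0.976 in edgeR, a level 3.76-fold higher. Without mouse 2 it was 1.72 ± 0.50 (SE).

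S100g was the only 1 of 9 tested genes of calcium absorption and vitamin D response with an unadjusted p under 0.05 in edgeR (1.4% of all genes were higher). The median of this list was 0.10 with all mice and -0.01 without mouse 2. Vdr, the vitamin D receptor, was at 110 ± 8.31 FPKM (SD, n = 5) with water and 112 ± 8.00 FPKM (SD, n = 5) with PAC. Cldn2, a pore-forming claudin that passes calcium, was at 87.0 ± 19.0 and 104 ± 16.6 FPKM, and Atp2b1, a plasma membrane calcium pump, at 72.4 ± 15.8 and 80.6 ± 18.2 FPKM. The calcium channel gene Trpv6 did not exceed 0.04 FPKM in any of the 10 mice, and Cyp24a1, the vitamin D 24-hydroxylase, did not exceed 0.02 FPKM.

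Genes of lipid absorption lay mostly below 0. Of 17 tested genes of apolipoproteins and chylomicron assembly, the machinery that exports dietary lipid from the enterocyte, 14 had a log2 fold change below 0 and 8 were lower at an unadjusted p under 0.05 in edgeR, where 2.21% of all genes were. None was higher at that threshold. The median was -0.24 with and without mouse 2, and it ranged from -0.28 to -0.18 as each mouse was left out. The number past the threshold was 4 without mouse 2, 3 without water mouse 1 and 10 without water mouse 2. Apoa4, an apolipoprotein of chylomicrons, was at 534, 213, 380, 387 and 604 FPKM with water and 212, 137, 252, 237 and 368 FPKM with PAC. Water mouse 2 was as low as the PAC mice and PAC mouse 5 came close to the middle of the water group. The log2 fold change of Apoa4 was -0.87 ± 0.27 (SE, unadjusted p = 0.00573, edgeR).

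Other members of this list lay in the same direction. Apoc3, an inhibitor of lipoprotein lipase, was at -0.75 ± 0.26 (SE) on the log2 scale and Apoc2, its activator, at -0.48 ± 0.21. Apoa1, the main HDL protein, ranged from 3383 to 5449 FPKM with water and from 2973 to 4469 FPKM with PAC. Mttp, the transfer protein that loads lipid onto apolipoprotein B, was at 356, 312, 400, 377 and 392 FPKM with water and 295, 261, 298, 239 and 378 FPKM with PAC, where 4 of the 5 PAC mice were below every water mouse. Mogat2, which rebuilds diacylglycerol from absorbed monoacylglycerol, was below every water mouse in 4 of 5 PAC mice too, at 131 ± 10.1 FPKM with water and 116 ± 2.60 FPKM with PAC (SD, n = 5). Dgat1, which completes triacylglycerol, was at 176 ± 24.1 and 150 ± 17.0 FPKM. Dgat2 and Plin2, a lipid droplet coat protein, were not lower, with log2 fold changes above 0.

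Sterol transport genes ranged from -0.51 to 0.00 on the log2 scale. Npc1l1 (chr11:6211011-6230245, GRCm38.p6), the brush border protein that takes up dietary cholesterol, was at 212, 184, 204, 257 and 233 FPKM with water and 143, 159, 168, 148 and 177 FPKM with low mDP PAC. Every PAC mouse was below every water mouse. In edgeR the difference on the log2 scale was -0.51 ± 0.21 (SE, unadjusted p = 0.0257), a level 1.42-fold lower, and it was -0.53 without mouse 2. Of the 10 sterol transport genes 2 were lower at an unadjusted p under 0.05 in edgeR, where 2.21% of all genes were, and the median was -0.21 with and without mouse 2. The count was 0 in limma with a pseudocount of 0.1 and 4 without PAC mouse 5. The second was Abca1, which exports cholesterol to apolipoprotein A-I, at -0.44 ± 0.18 (SE). Abcg5, part of the transporter that returns plant sterols to the lumen, was at -0.22 ± 0.11 with all mice (unadjusted p = 0.0510, edgeR) and at -0.29 without mouse 2 (unadjusted p = 0.0164).

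Genes of fatty acid uptake, oxidation and the lipid sensor PPARa, 34 in all, had a median of -0.04 with 23 below 0, and 0.02 with 16 below 0 without mouse 2. At an unadjusted p under 0.05 in edgeR 1 was higher and 2 were lower (1.4% and 2.21% of all genes), and the number lower was 1 without mouse 2 and 4 without PAC mouse 5. The lower genes were Acaa1a, a peroxisomal thiolase, at -0.29 ± 0.09 (SE), and Vnn1, pantetheinase, at -0.37 ± 0.18. Cyp4a10, a fatty acid hydroxylase, was the higher gene, at 0.96, 0, 1.51, 0.12 and 0.42 FPKM with PAC and no more than 0.30 FPKM with water. Its level was low throughout and PAC mouse 2 was listed at 0.

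**Figure D3:**
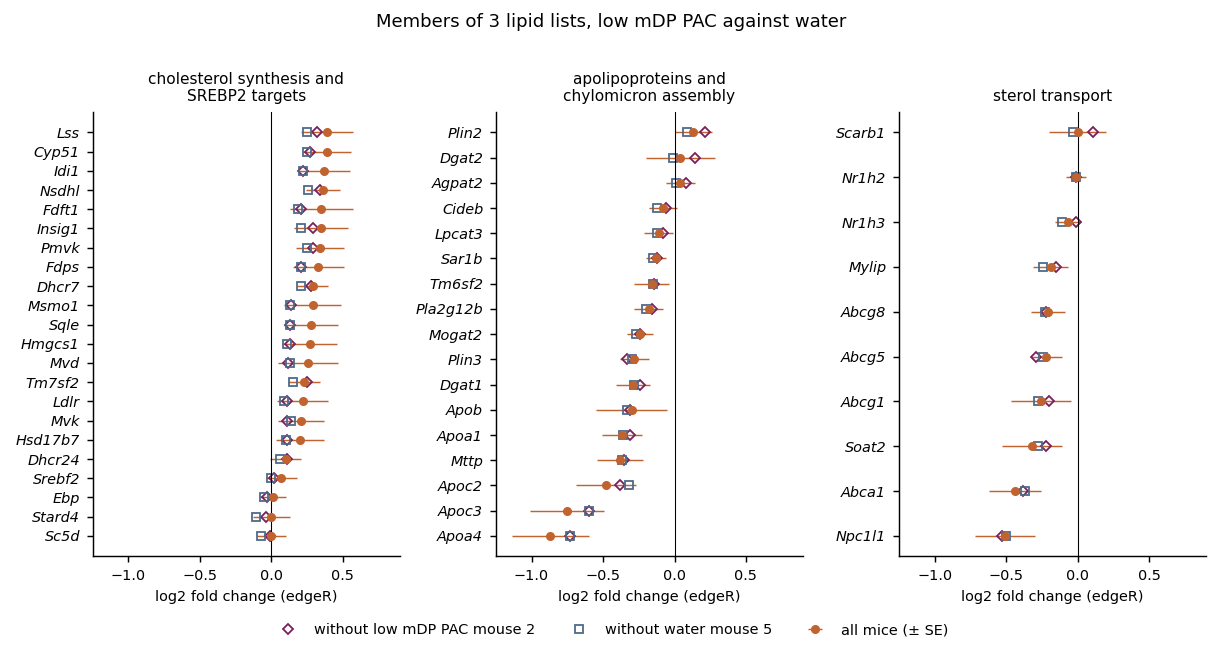
Log2 fold change (low mDP PAC less water, edgeR) of members of 3 lipid lists, with all mice (filled points, bar = SE), without low mDP PAC mouse 2 (diamonds) and without water mouse 5 (squares). Apolipoprotein and sterol transport genes lay mostly below 0 under all 3, and cholesterol synthesis genes lay above 0 but moved toward 0 when either mouse was left out.

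Genes of cholesterol synthesis, which the transcription factor SREBP2 switches on when cell cholesterol is low, lay in the opposite direction. Of 24 members, 22 had a log2 fold change above 0, with a median of 0.28, and 5 were higher at an unadjusted p under 0.05 in edgeR, where 1.4% of all genes were. Among them were Lss, lanosterol synthase, at 0.39 ± 0.18 (SE), Cyp51 at 0.39 ± 0.17, Nsdhl at 0.36 ± 0.12 and Dhcr7 at 0.29 ± 0.11, the last 3 being later enzymes of the pathway. None of the 5 passed an adjusted p under 0.05.

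This list rested on few mice. The list score of a mouse, which is the mean log2 value of its members in TMM-scaled CPM after the water average was subtracted, was 0.09, 0.20, 0.18, 0.09 and -0.55 in water mice and 0.22, 0.54, 0.25, 0.37 and -0.12 in PAC mice. Water mouse 5 was far below the other 4 water mice, PAC mouse 2 was the highest and PAC mouse 5 was below those 4 water mice. The number past the threshold was 2 without water mouse 5 and 14 without PAC mouse 5. The median was 0.13 without water mouse 5 and 0.14 without PAC mouse 2. Nsdhl was at 22.9, 29.9, 26.1, 24.5 and 18.3 FPKM with water and 34.9, 33.5, 30.1, 37.4 and 27.0 FPKM with PAC. In this gene 4 of the 5 PAC mice were above every water mouse and PAC mouse 5 was not. Without water mouse 5 Nsdhl was at 0.26 and kept an unadjusted p under 0.05 in edgeR, while Lss, Cyp51 and Dhcr7 did not. Hmgcs1, an early synthase of the pathway, was at 0.27 ± 0.19.

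The promoters of these genes are shown because the members lay on 1 side of 0 together. SREBP2 is known to bind sterol response elements next to a CCAAT box, the site of the factor NF-Y. Promoters were taken from RefSeq (GRCm38.p6, 250 bases before to 50 after each gene start), which held 16 of the 24 genes. The letters ATTGG (or CCAAT on the other strand) were found in 16 of these 16 genes and in 41.1% of the 27025 genes with a promoter in that table. The letters TCACNCCAC, the core of a sterol response element, were found on either strand in 1 of the 16, Hmgcs1, and in 1.44% of all genes. A match of letters is a description and not a binding site. The 150 bases before the start are given for Hmgcs1 (chr13:119690201-119690350, plus strand), Cyp51 (chr5:4104698-4104847, minus strand) and Nsdhl (chrX:72918371-72918520, plus strand), with the matches to either motif in capitals.
Hmgcs1: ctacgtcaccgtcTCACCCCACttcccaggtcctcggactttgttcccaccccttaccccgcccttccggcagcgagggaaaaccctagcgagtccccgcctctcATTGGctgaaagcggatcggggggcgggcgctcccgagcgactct
Cyp51: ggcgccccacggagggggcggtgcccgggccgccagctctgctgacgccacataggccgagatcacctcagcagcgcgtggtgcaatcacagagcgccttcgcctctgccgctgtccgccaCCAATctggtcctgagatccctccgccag
Nsdhl: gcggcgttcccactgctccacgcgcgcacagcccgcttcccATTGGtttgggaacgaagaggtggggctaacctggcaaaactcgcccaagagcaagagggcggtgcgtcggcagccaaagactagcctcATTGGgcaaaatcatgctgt

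The list of brush border lipases, nucleases and phosphatases had the lowest median of the enterocyte lists. Most of its members digest lipids, nucleic acids or phosphate esters, but it also held Ada and Sult1b1. All 14 tested members were below 0, with a median of -0.52 with all mice and -0.55 without mouse 2, and 6 were lower at an unadjusted p under 0.05 in edgeR, where 2.21% of all genes were. Without water mouse 5 the count was 2 and the median -0.39. This list was written with earlier results of these data known, so its count is a description and not a test. Smpdl3b (chr4:132732966-132757171, GRCm38.p6), a sphingomyelinase-like membrane phosphodiesterase, was at 15.6, 12.5, 18.4, 20.2 and 14.2 FPKM with water and 6.61, 12, 10.6, 11.2 and 10.9 FPKM with PAC. Every PAC mouse was below every water mouse, narrowly so for mouse 2. Its log2 fold change was -0.71 ± 0.19 (SE, unadjusted p = 0.00201, edgeR).

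Other members of the list varied widely within each group. Asah2, the neutral ceramidase that splits dietary ceramide, was at 66.2, 43.6, 79.8, 155 and 147 FPKM with water and 21.2, 41.3, 29.7, 71.6 and 68.9 FPKM with PAC. Water mice 3, 4 and 5 were above every PAC mouse, and water mice 1 and 2 lay within the PAC range. Its log2 fold change was -1.13 ± 0.44 (SE, unadjusted p = 0.0198, edgeR) and an exact permutation test on log2 values (two-sided) gave p = 0.0635. Enpp7, alkaline sphingomyelinase, was at 291, 150, 299, 492 and 470 against 98.4, 43.4, 213, 253 and 282 FPKM (unadjusted p = 0.0767, edgeR). Dnase1 and Plb1, a brush border phospholipase, were likewise highest in water mice 4 and 5 and lowest in PAC mice 1 and 2, with log2 fold changes of -1.59 ± 0.61 and -1.14 ± 0.74.

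Of 30 genes of sphingomyelin and ceramide metabolism 4 were lower at an unadjusted p under 0.05 in edgeR, where 2.21% of all genes were, but only 1 without water mouse 4. The median of this list was -0.05, near that of all genes. Sgpl1, the lyase that ends sphingolipid breakdown, was at 78.5, 65.8, 79.1, 85.0 and 91.4 FPKM with water and 56.6, 56.0, 60.9, 61.7 and 75.2 FPKM with PAC. PAC mouse 5 alone was within the water range. Ugcg, glucosylceramide synthase, and Sphk1, sphingosine kinase, were at -0.26 ± 0.12 and -0.61 ± 0.27 (SE), and Ptdss1 (chr13:66932830-66998401, GRCm38.p6), a phosphatidylserine synthase, was below every water mouse in all 5 PAC mice, at 44.1 ± 2.10 and 36.9 ± 3.14 FPKM (SD, n = 5).

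Npl, N-acetylneuraminate pyruvate lyase, which breaks down sialic acid, was at 28.9, 21.4, 34.9, 41.2 and 38.6 FPKM with water and 8.49, 7.50, 15.8, 15.5 and 22.0 FPKM with low mDP PAC. Only PAC mouse 5 reached the level of the lowest water mouse. The log2 fold change was -1.31 ± 0.34 (SE) with an unadjusted p of 0.00142 in edgeR, a level 2.48-fold lower, and an exact permutation test (two-sided) gave p = 0.0159. Without mouse 2 it was -1.16 ± 0.35 (SE). It was the only 1 of 13 sialic acid genes with an unadjusted p under 0.05 in edgeR (2.21% of all genes were lower), and their median was -0.02.

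Sugar, peptide and amino acid handling showed mostly the same direction with fewer members past the threshold. Of 15 disaccharidases and sugar transporters 14 were below 0, with a median of -0.29 that became -0.15 without mouse 2, and 1 was lower at an unadjusted p under 0.05 in edgeR (2.21% of all genes were), or 0 without PAC mouse 4. This was Slc5a1, the sodium-glucose cotransporter SGLT1, at 382, 414, 532, 545 and 417 FPKM with water and 339, 331, 395, 311 and 374 FPKM with PAC, where PAC mouse 3 alone crossed into the water range. Lct, lactase, was at 38.3, 15.2, 54.8, 80.5 and 92.7 FPKM with water and 10.4, 1.10, 33.0, 29.4 and 64.8 FPKM with PAC. The groups overlapped widely in Lct, and the difference of -1.08 ± 0.85 (SE) was within that spread.

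Of 14 brush border peptidases 12 were below 0 (median -0.22), and Ace, which trims dipeptides from peptide ends, was the 1 lower at an unadjusted p under 0.05 in edgeR (2.21% of all genes were), at -0.84 ± 0.30 (SE), where 2 were lower without mouse 2 and 5 in a fit of the 10 mice alone. Of 19 amino acid and peptide transporters 13 were below 0 (median -0.21, and -0.13 without PAC mouse 4). At that threshold 1 was higher and 2 were lower (1.4% and 2.21% of all genes). The higher one was Slc6a14, which PAC mouse 2 set, and 0 were higher without that mouse. The number lower was 1 in limma with a pseudocount of 0.1 and 5 in a fit of the 10 mice alone. Slc36a1, a proton-coupled transporter of small amino acids, was at 9.38, 9.73, 11.7, 17.8 and 15.8 FPKM with water and 8.26, 8.53, 8.88, 10.8 and 9.15 FPKM with PAC, a log2 fold change of -0.55 ± 0.17 (SE). Here 4 of 5 PAC mice were below every water mouse. Of 24 ion and fluid transporters 16 were below 0 (median -0.13). At an unadjusted p under 0.05 in edgeR 3 were lower (2.21% of all genes were). Among them Slc9a3, the sodium-proton exchanger NHE3, was at 3.55, 2.74, 5.38, 7.07 and 8.32 FPKM with water and stayed between 2.39 and 3.17 FPKM with PAC. The PAC mice lay together at the low end of a wide water range, and its log2 fold change was -0.98 ± 0.34 (SE).

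Many of these genes are known to be expressed more strongly in the proximal than in the distal small intestine, and a list of proximal markers lay in the same direction. Of 18 tested markers 15 were below 0, with a median of -0.40 (-0.35 without mouse 2 and -0.26 without water mouse 5), and 5 were lower at an unadjusted p under 0.05 in edgeR, where 2.21% of all genes were, and 9 without water mouse 2. The list shares Npc1l1, Apoa4, Ada, Slc5a1, Lct, Rbp2 and Cyp2b10 with lists of function used here. Gata4, the transcription factor that marks the proximal small intestine, was at 4.58, 1.69, 4.04, 12.5 and 12.7 FPKM with water and 0.48, 0.91, 1.97, 6.23 and 4.19 FPKM with PAC. Water mice 4 and 5 and PAC mice 4 and 5 were the high mice of their groups, and the difference of -1.42 ± 0.73 (SE) had an unadjusted p of 0.0691 in edgeR.

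Scores of the proximal list were -0.13, -0.42, 0.02, 0.07 and 0.45 in water mice and -0.76, -1.01, -0.38, -0.33 and -0.01 in PAC mice. Scores of the brush border lipase, nuclease and phosphatase list were -0.09, -0.68, -0.02, 0.35 and 0.43 in water mice and -1.06, -1.33, -0.53, -0.37 and -0.16 in PAC mice. Water mouse 2 was the lowest of its group and mouse 5 the highest of each group in both scores, and PAC mice 1 and 2 were the lowest of all. The 18 distal ileum markers had a median of 0.01. Fabp6 was at 6321, 6831, 6739, 4307 and 4196 FPKM with water and 6941, 7124, 5937, 7630 and 7425 FPKM with PAC, with water mice 4 and 5, which were high in Gata4, the lowest. The part of the position of the tissue piece in the lower levels of enterocyte genes was not tested.

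Hoxb5 (chr11:96303512-96306121, GRCm38.p6), a homeobox gene of gut mesenchyme and enteric neural precursors, was higher in the PAC group. It was at 3.71, 4.39, 4.46, 3.72 and 3.12 FPKM with water and 7.62, 8.16, 6.14, 6.36 and 5.44 FPKM with PAC. Every PAC mouse was above every water mouse. For Hoxb5 the log2 fold change was 0.74 ± 0.16 (SE) with an unadjusted p of 0.000331 and an adjusted p of 0.976 in edgeR, against an adjusted p of 0.0503 in DESeq2.

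**Figure D4:**
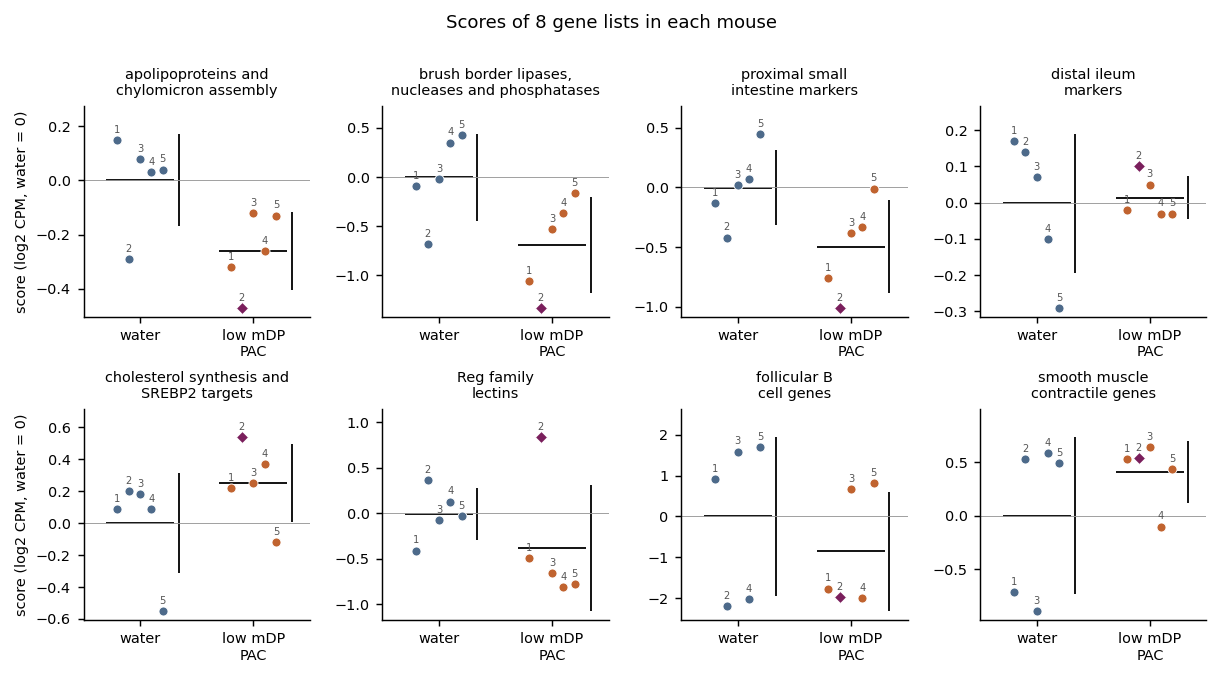
List score of each mouse (mean log2 value of the members in TMM-scaled CPM after the water average was subtracted) for 8 gene lists, with the group mean (line) and SD (bar). Follicular B cell scores were high in water mice 1, 3 and 5 and PAC mice 3 and 5, and smooth muscle scores were low in water mice 1 and 3 and PAC mouse 4.

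The antimicrobial genes depended on 1 mouse. Reg3g, a secreted lectin that kills Gram-positive bacteria, was at 940, 3292, 1816, 2131 and 1556 FPKM with water and at 601, 5722, 595, 376 and 352 FPKM with low mDP PAC. In the PAC group 4 mice were below every water mouse and mouse 2 was above every water mouse. The difference on the log2 scale was -0.35 ± 0.75 (SE, unadjusted p = 0.645, edgeR) with all mice and -2.07 ± 0.52 (SE) without mouse 2, and the adjusted p with all mice was 0.984. Mouse 2 was singled out for its high level of these genes, so their values without it are a description and no test of them is read.

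Reg3b, the related lectin, had the same pattern, at 2456, 6224, 4177, 4226 and 3169 FPKM with water and 2047, 9637, 1566, 748 and 1021 FPKM with PAC. Its log2 fold change was -0.45 ± 0.62 (SE) with all mice and -1.65 ± 0.46 without mouse 2. Reg4, a lectin of goblet and enteroendocrine cells, did not follow it, at 61.4 ± 19.2 FPKM with water and 90.8 ± 14.2 FPKM with PAC (SD, n = 5), a log2 fold change of 0.52 ± 0.17 that was 0.54 without mouse 2. The median of the 5 tested Reg genes was -0.16 with all mice and -0.50 without mouse 2. At an unadjusted p under 0.05 in edgeR with all mice 1 was higher and 0 were lower (1.4% and 2.21% of all genes).

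Genes of the epithelial oxidant and acute response behaved alike. Of 22 tested members 15 were below 0, none had an unadjusted p under 0.05 in edgeR and the median was -0.11. Without mouse 2, 18 were below 0 and the median was -0.35. Nos2, inducible nitric oxide synthase, was at 47.9, 32.9, 70.3, 78.1 and 62.5 FPKM with water and 25.1, 78.4, 23.4, 27.5 and 15.5 FPKM with PAC. Again 4 PAC mice were below and mouse 2 was above every water mouse. On the log2 scale the difference was -0.82 ± 0.54 (SE) with all mice and -1.42 ± 0.51 without mouse 2, with an unadjusted p of 0.152 in edgeR for all mice.

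Duox2, the dual oxidase that makes hydrogen peroxide at the epithelial surface, was at 8.54, 15.4, 17.7, 16.4 and 13.5 FPKM with water and 7.48, 34.4, 4.44, 7.55 and 4.34 FPKM with PAC, and its maturation factor Duoxa2 was highest in PAC mouse 2 at 16.6 FPKM. Il18, an epithelial cytokine, was at 20.6, 35.7, 29.0, 31.7 and 26.0 FPKM with water and 18.7, 39.8, 18.0, 15.1 and 18.9 FPKM with PAC. The log2 fold change of Il18 was -0.41 ± 0.23 (SE) with all mice and -0.76 ± 0.15 without mouse 2. Saa1, serum amyloid A, was at 2.26, 40.1, 15.2, 7.74 and 14 FPKM with water and 4.03, 165, 2.86, 0 and 0.33 FPKM with PAC, and the sign of its difference turned with mouse 2, from 1.15 ± 1.32 to -3.16 ± 1.17 (SE). Slc6a14, an amino acid transporter, was at 0.44 FPKM or less in 9 of the 10 mice and at 13.1 FPKM in PAC mouse 2, and its log2 fold change was 4.12 with all mice and -0.12 without mouse 2. Fut2, which fucosylates the epithelial surface, turned from 0.56 to -0.61.

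**Figure D5:**
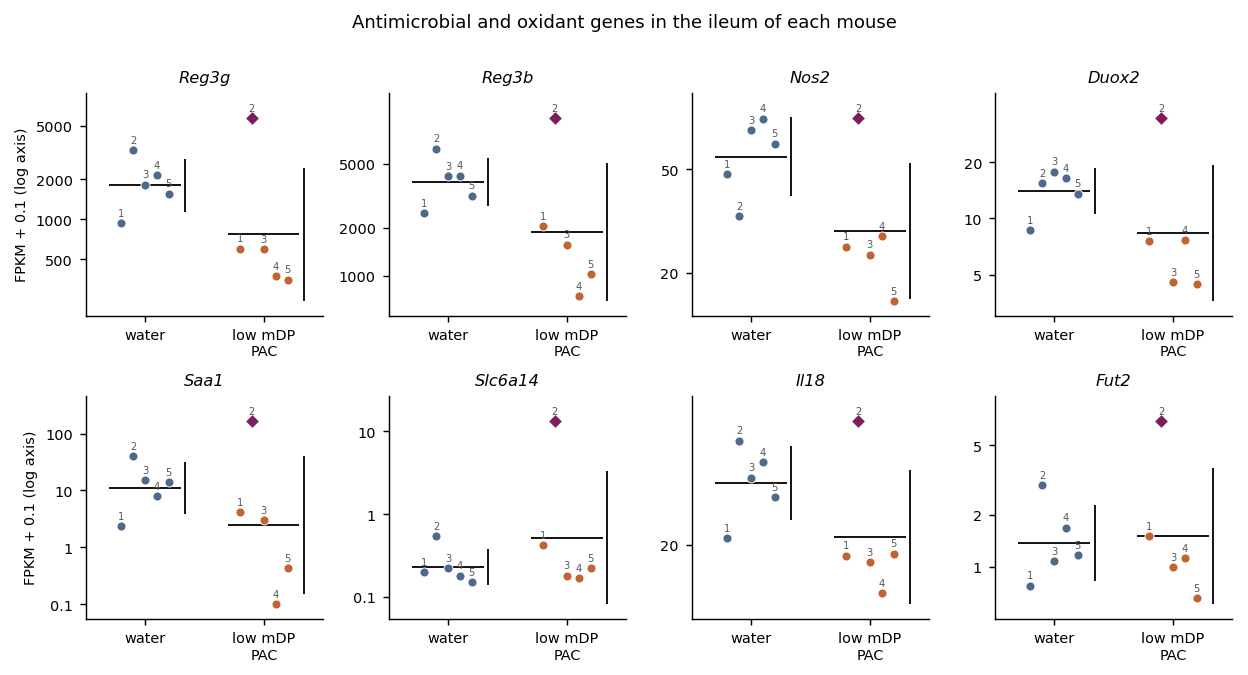
FPKM plus 0.1 (log axis) of 8 antimicrobial and oxidant genes in each mouse, with the group mean (line) and SD (bar) on the log2 scale. Low mDP PAC mouse 2 (diamond) was the highest of the 10 mice in all 8 genes, while the other 4 PAC mice were below every water mouse in Reg3g, Reg3b, Nos2, Duox2 and Il18.

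Mouse 2 was the most distant mouse of the PAC group. The chi-square statistic between the counts of a pair of mice, divided by the number of genes, was 32.8 to 42.2 between mouse 2 and the other 4 PAC mice, 14.1 to 27.4 among those 4 and 16.2 to 39.2 among the water mice. Its score was also outside the other 4 in disaccharidases and sugar transporters (-1.31 against -0.58 to 0.03), colon markers (0.76 against -0.80 to -0.25) and adipocyte genes (-0.67 against 0.52 to 1.24). Chosen after the values were seen, 9 genes had the other 4 PAC mice below every water mouse and mouse 2 above them all, namely Reg3g, Reg3b, Nos2, Duox2, Il18, Abcc3, Dnajb3, Gprin1 and Meltf. The opposite order was found in 21 genes, with differences that were mostly small, such as Plin2 at 27.3 FPKM in mouse 2 against 30.2 to 35.0 with water and 36.9 to 42.8 in the other PAC mice. Mouse 2 was over 2 times the next of the other 9 mice in 4 of 12377 genes at a mean of at least 1 FPKM, Saa1, Slc6a14, Duoxa2 and Fut2, against 0 or 1 gene for each other mouse, and it was under 1/2 of the next mouse in 16 genes, against 0 to 13. The Paneth cell secretory score was 0.34 in mouse 2, the highest of the 10 mice, against -0.13 to 0.20 in the other PAC mice and up to 0.33 with water. The 22 tested members had a median of 0.03 with all mice, 14 above 0, and -0.04 without mouse 2, 8 above 0, and Lyz1, Paneth cell lysozyme, was at 5633 ± 1498 FPKM with water and 5980 ± 683 FPKM with PAC (SD, n = 5).

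Follicular B cell and lymphoid chemokine genes had the lowest medians of the 63 lists, with wide spread. All 24 tested follicular B cell genes were below 0, with a median of -1.13 (-0.89 without mouse 2, and from -1.63 to -0.72 as each mouse was left out), and none had an unadjusted p under 0.05 in edgeR. Cd79a, a signalling chain of the B cell receptor, was at 28.4, 3.31, 48.5, 4.04 and 52.5 FPKM with water and 3.93, 3.69, 27.9, 4.32 and 24.3 FPKM with PAC. The mice of both groups fell into those with B cell RNA, water mice 1, 3 and 5 and PAC mice 3 and 5, and those with little, and the summed level of the list ranged from 35.0 to 353 FPKM with water and from 38.8 to 182 FPKM with PAC. All 19 genes of lymphoid chemokines and lymphotoxins and all 32 T cell genes were also below 0, with none at an unadjusted p under 0.05 in edgeR. Their medians were -0.73 (-0.43 without water mouse 5) and -0.34 (-0.19 without water mouse 3).

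MHC class II genes, which present antigen, were all below 0 in the 14 tested, with a median of -0.44 (-0.23 without water mouse 3) and none at an unadjusted p under 0.05 in edgeR, though 5 were lower at that threshold without water mouse 2. Cd74, the invariant chain, ranged from 627 to 1363 FPKM with water and from 612 to 807 FPKM with PAC. The MHC class II score was 0.31, -0.87, 0.81, -0.72 and 0.47 in water mice and -0.82, -0.81, -0.02, -0.79 and 0.07 in PAC mice, and it was high in the same mice as the follicular B cell score. Its difference between the groups was within the spread of the water mice. Interferon-stimulated genes had 38 of 42 below 0 and a median of -0.23, with Cxcl10, Oas3 and Ddx58 lower at an unadjusted p under 0.05 in edgeR (7.14%, against 2.21% of all genes). The median was -0.09 without water mouse 3, and the number lower was 10 without water mouse 2 and 0 in limma with a pseudocount of 0.1. Of 28 macrophage and dendritic cell genes 3 were lower at that threshold (2.21% of all genes were), or 1 in that limma fit and 5 with mouse number as a block, among them Itgax, the integrin CD11c, at 7.57 ± 1.22 and 6.31 ± 0.481 FPKM (SD, n = 5), and the median was -0.11.

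Interleukin receptors and JAK-STAT genes, 54 in all, had a median of -0.13, with 46 below 0. Pim1, a kinase induced by STAT factors, and Il10rb, a shared subunit of the IL-10 and IL-22 receptors, were the 2 with an unadjusted p under 0.05 in edgeR, at -0.41 ± 0.14 and -0.12 ± 0.06 (SE), a share of 3.70% against 2.21% of all genes. The number lower was 6 without water mouse 2 and 1 without PAC mouse 2. Nfkbia, the inhibitor of NF-kB that NF-kB itself induces, was at 52.1, 34.6, 54.3, 45.2 and 98.1 FPKM with water and between 35.1 and 42.5 FPKM with PAC. The water group held the 4 highest mice, and its log2 fold change was -0.63 ± 0.21 (SE). Outside the lists, Il1rn (chr2:24336860-24351491, GRCm38.p6), the antagonist of the IL-1 receptor, was at 1.41 ± 0.250 FPKM with water and 1.02 ± 0.0696 FPKM with PAC, and Il17re, the receptor for IL-17C, at 2.80 ± 0.251 and 3.79 ± 0.489 FPKM, each without overlap in FPKM between the groups, though in TMM-scaled counts the groups overlapped in Il17re.

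Muscle and nerve genes lay mostly above 0, and none passed an adjusted p under 0.05. All 24 smooth muscle genes were above 0, with a median of 0.31 (0.12 without water mouse 3, 0.45 without water mouse 4) and none at an unadjusted p under 0.05 in edgeR. Myh11, smooth muscle myosin, was at 46.3, 156, 42.0, 168 and 165 FPKM with water and 167, 171, 178, 89.2 and 157 FPKM with PAC. Water mice 1 and 3 held little muscle RNA and the other 3 water mice were level with 4 of the 5 PAC mice, while PAC mouse 4 lay between. The summed level of the 24 genes ranged from 910 to 2312 FPKM with water and from 1583 to 2503 FPKM with PAC. Of 25 enteric neuron and glia genes 23 were above 0 (median 0.33, and 0.14 without water mouse 3), and S100b, a glial calcium-binding protein, and Gfra3, a receptor for artemin, were higher at an unadjusted p under 0.05, where 1.4% of all genes were, a count that was 0 without water mouse 1 and 5 in limma with a pseudocount of 0.1. The enteric neuron score was -0.58, 0.45, -0.80, 0.44 and 0.49 in water mice and 0.64, 0.56, 0.53, -0.02 and 0.49 in PAC mice, with the same low mice as for smooth muscle.

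The 17 mesothelium genes (median 0.32) and 13 adipocyte genes (median 0.50, and 0.69 without mouse 2) mark tissue attached to the outside of the gut. Without water mouse 4 these medians were 0.65 and 0.88, without water mouse 1 that of mesothelium was 0.21 and without water mouse 2 that of adipocytes 0.27. Adipoq, adiponectin, ranged from 10.8 to 63.1 FPKM with water and from 16.4 to 76.8 FPKM with PAC, so that fat RNA varied as much within as between groups. Of 31 fibroblast and matrix genes 2 were higher at an unadjusted p under 0.05 in edgeR (1.4% of all genes were), Sparc and Loxl1, at 0.39 ± 0.17 and 0.44 ± 0.20 (SE), and this count was 0 without PAC mouse 1 and 9 without water mouse 4. Of 23 pancreatic acinar genes 13 were listed in the 10 mice, Prss1 and Pnlip in 0 and Cela1 in 15 of all 15 mice. Their summed level of 4030 to 5152 FPKM with water and 4550 to 5040 FPKM with PAC was mostly Zg16, which goblet cells also express, at 4172 ± 410 and 4408 ± 188 FPKM (SD, n = 5). Of caudal markers Hoxb13 was listed in 0 and Car1 in 4 of the 15 mice. The part of the amount of muscle, fat or lymphoid tissue in a piece in the differences of other genes was not tested.

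Genes of the secretory lineages and the crypt differed little. The medians were 0.11 for 19 goblet cell genes, 0.07 for 19 tuft cell genes, 0.11 for 22 stem cell and Wnt target genes and 0.11 for 42 cell cycle genes, of which 37 were above 0 and none had an unadjusted p under 0.05 in edgeR. The cell cycle score reached 0.26 and 0.43 in PAC mice 2 and 4 and lay between -0.13 and 0.06 in the other 8 mice. Muc2, the main mucin, was at 603 ± 122 and 679 ± 62.8 FPKM, and Lgr5, the stem cell receptor, at 8.19 ± 1.22 and 9.83 ± 1.33 FPKM (SD, n = 5).

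Of 25 enteroendocrine genes 3 were higher and 1 lower at an unadjusted p under 0.05 in edgeR (1.4% and 2.21% of all genes), with a median of 0.11. The number higher was 0 without water mouse 3 and 6 in limma with a pseudocount of 0.1. Gcg (chr2:62474530-62483653, GRCm38.p6), which encodes the precursor of GLP-1 in L cells, was at 43.9, 40.4, 35.6, 37.8 and 39.1 FPKM with water and 48.9, 46.2, 48.0, 64.6 and 46.8 FPKM with PAC. Every PAC mouse was above every water mouse in FPKM, though not in TMM-scaled counts. The log2 fold change was 0.32 ± 0.14 (SE, unadjusted p = 0.0336, edgeR). Pcsk1n and Scg5, which regulate prohormone convertases, were the other higher genes at 0.56 ± 0.26 and 0.40 ± 0.16, and Tph1, the serotonin-making hydroxylase of enterochromaffin cells, was lower at -0.36 ± 0.13.

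Housekeeping and detoxification genes stayed near the median of all genes. The medians were -0.04 for 76 cytosolic and 0.03 for 78 mitochondrial ribosomal proteins, 0.03 for complex I, 0.01 for ATP synthase and 0.00 for 22 circadian clock genes, none with a member at an unadjusted p under 0.05 in edgeR. Nrf2 targets, which respond to electrophiles and to many plant phenols, had a median of -0.01 over 33 genes. Gsta4, a glutathione transferase, was the 1 member past that threshold (3.03%, where 1.4% of all genes were higher). It was at 28.6 ± 2.39 FPKM with water and 38.1 ± 10.8 FPKM with PAC (SD, n = 5). PAC mouse 4 was at 57.0 FPKM and the other 4 PAC mice were at 30.5 to 36.1 FPKM. Nqo1, a standard Nrf2 target, was at 0.13 ± 0.10 (SE) on the log2 scale. The 27 genes of the unfolded protein response had a median of -0.11. The 26 immediate early genes, which cells switch on within minutes of a stimulus, lay lower, with a median of -0.23 and 3 lower at an unadjusted p under 0.05 in edgeR (11.5%, against 2.21% of all genes), Nfkbia, Btg2 and Mcl1. That count was 1 with RLE scaling and 8 without water mouse 2.

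Leaving out predicted genes, 33 genes at a mean of at least 1 FPKM in either group had groups that did not overlap in FPKM and an unadjusted p under 0.05 in edgeR, 21 higher (0.146% of all genes tested) and 12 lower (0.0834%). In TMM-scaled counts 13 of the 21 and all 12 were also without overlap, but the same rule in that scale gave 13 higher and 43 lower, so the balance of directions followed the scaling. Most of those not yet described differed by little. Cdkn2c, the cell cycle inhibitor p18, was at 5.05, 6.83, 6.34, 8.46 and 7.96 FPKM with water and 9.63, 8.84, 8.78, 11 and 9.59 FPKM with PAC. Tst, a mitochondrial sulfur transferase, was at 15.1 ± 1.28 and 19.5 ± 1.27 FPKM, and Msantd3, a gene of unclear role, at 0.752 ± 0.151 and 1.42 ± 0.307 FPKM (SD, n = 5). Nradd, Arhgef10, Ube2e2 and Limch1 were at log2 fold changes of 0.54 ± 0.20, 0.40 ± 0.11, 0.37 ± 0.16 and 0.31 ± 0.10 (SE), with Ube2e2, a ubiquitin-conjugating enzyme, between 1.85 and 3.62 FPKM with water and between 3.71 and 4.24 FPKM with PAC. On the lower side, Mxd1, a partner of MAX found in differentiated cells, was at 171, 146, 178, 165 and 140 FPKM with water and 126, 131, 129, 120 and 137 FPKM with PAC. Igsf23 was at 39.9 ± 3.69 and 31.7 ± 2.35 FPKM, Lpar5, a receptor for lysophosphatidic acid, at 13.5 ± 0.516 and 11 ± 0.790 FPKM, and Vegfc, a lymphatic growth factor, at 3.05 ± 0.209 and 2.64 ± 0.128 FPKM. Nat8f1, Gskip and Myrfl were at log2 fold changes of -0.44 ± 0.16, -0.26 ± 0.07 and -0.18 ± 0.08 (SE).

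The fraction of higher mDP was given at the same dose and over the same days, so the 2 PAC groups could be compared directly. At an adjusted p under 0.05 edgeR called 0 genes between them, with 559 at an unadjusted p under 0.05 (3.89%). Slc28a2 was at 22.5 ± 3.13 FPKM (SD, n = 5) with high mDP PAC, and low mDP PAC was higher by 0.50 on the log2 scale (95% interval 0.17 to 0.84). S100g was at 72.6 ± 47.8 FPKM with high mDP PAC, and low mDP PAC differed by -0.88 (95% interval -1.83 to 0.07). Npc1l1 was at 117 ± 37.9 FPKM with high mDP PAC, with a difference of 0.47 (0.03 to 0.91), and Slc23a4 at 6.33 ± 0.622 FPKM, with a difference of 0.48 (0.20 to 0.76). In these 4 genes the low mDP PAC mean lay between the water and the high mDP PAC mean. The genes were chosen with their difference from water known, so this order is a description. The intervals are not adjusted for the number of genes tested. After adjustment the p in edgeR between the 2 fractions was 0.896 for each of Slc28a2, Npc1l1 and Slc23a4. For Hoxb5 the difference was -0.20 (-0.54 to 0.13), for Npl 0.57 (-0.16 to 1.3) and for Reg3g 1.05 (-0.56 to 2.66). These intervals and that of S100g held 0, which did not show that the fractions acted alike.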

How the data were processed

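Ileal RNA of 15 mice was sequenced on a BGISEQ-500. The study's methods state read filtering with SOAPnuke and mapping to the mouse genome mm10 with Bowtie2, while the submitters' processing notes name HISAT and DESeq2. The authors deposited, for each mouse, an expected count and an FPKM value per gene and list only genes above 0. Genes not listed were set to 0. Depth is given at the start of the report, and 88.6% to 89.5% of expected counts were whole, so they were rounded.

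Tests used edgeR 4.0.16 (TMM, its default filter on low counts, quasi-likelihood test, 1 fit over the 3 groups) on the rounded counts, with Benjamini-Hochberg adjustment over 14386 genes and a threshold of 0.05. DESeq2 1.42.0 and limma 3.58.1 on log2(FPKM + 0.1 or 1) were alternatives. Intervals use the t distribution of the edgeR fit. Exact permutation tests used log2(FPKM + 0.1) over 252 splits, with 0.0079 the smallest p possible. On simulated counts of 14386 genes for low mDP PAC against water, 88 of 100 genes with 2-fold and 95 of 100 with 4-fold changes were called. So were 5 unchanged genes. Each gene was drawn independently, without the spread in muscle, fat and lymphoid RNA that genes share in these mice. The simulation thus checks the code and does not show which changes could be found in these mice. The members, gene lists and tests were chosen with earlier results of these data known.

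Genes described singly were the 12 in each direction with the largest change among those at a mean of at least 1 FPKM in either group, an unadjusted p under 0.05 and groups that do not overlap in FPKM, plus members of the lists that defined a group, had an unadjusted p under 0.05 or moved with mouse 2. Coordinates and promoters are from RefSeq GRCm38.p6, in which 17716 of 17752 gene IDs were found. A few genes are not reported here.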

Additional observations from a re-analysis of the deposited data

Results flagged for a closer look

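In 22 of 408 groups of 5 mice looked at, 1 mouse lay far from the other 4 by Dixon's criterion, which chance alone meets in about 5% of groups, and no explanation was tested. Of these, 7 were in low mDP PAC mouse 4 and 5 in low mDP PAC mouse 2.

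Low mDP PAC mouse 2 stood out in Reg3g at 5722 FPKM, Duox2 at 34.4 FPKM, Il18 at 39.8 FPKM, Slc6a14 at 13.1 FPKM and the score of the Reg family lectins at 0.84, all above the other 4 mice of the group, which reached no more than 601, 7.55 and 18.9 FPKM, 0.32 FPKM and a score of -0.49.

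Low mDP PAC mouse 4 stood out in Rnls at 1.64 FPKM against 1.03 to 1.12 in the others, Gcg at 64.6 FPKM, Gsta4 at 57.0 FPKM, Il1rn at 0.90 FPKM and Myh11 at 89.2 FPKM. Its smooth muscle score of -0.10 and enteric neuron score of -0.02 were below the other 4 mice, which lay at 0.44 or above in both. Low mDP PAC mouse 1 was low in Smpdl3b at 6.61 FPKM and in Ccl21a, a lymphoid chemokine with near-identical copies that can share reads, at 0.94 FPKM against 27.2 to 82.4. Low mDP PAC mouse 5 was high in Ugcg at 72.8 FPKM.

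Water mouse 5 stood out in Slc28a2 at 65.7 FPKM, Hmgcs1 at 80.3 FPKM against 147 to 166, Siglech at 1.86 FPKM and the cholesterol synthesis score of -0.55. Water mouse 2 was low in Dgat1 at 134 FPKM and in the apolipoprotein score of -0.29. Water mouse 1 was low in Erg, an endothelial transcription factor, at 1.72 FPKM.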

How the results depend on the processing

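DESeq2 called 2 genes at an adjusted p under 0.05 (Slc28a2 and Gm1987), edgeR without low mDP PAC mouse 2 called 1, and DESeq2 without mouse 2 listed 4 (Il18 and Meltf were set by leaving it out), against 0 as reported, and leaving out each mouse gave 0 to 1. Gm1987 had an adjusted p of 2.22e-06 in DESeq2 and 0.976 in edgeR. Genes higher at an unadjusted p under 0.05 numbered 503 and 475 in limma at pseudocounts of 0.1 and 1, 337 with no filter and 312 with upper quartile scaling, against 202, and lower genes 132, 130 and 210 in limma and with upper quartile scaling, against 318. Leaving out each mouse gave 109 (without water mouse 3) to 365 (without water mouse 4) higher and 182 (without water mouse 3) to 483 (without water mouse 2) lower. Non-overlapping genes numbered 23 higher and 68 lower in TMM-scaled counts, and 92 to 204 higher and 24 to 106 lower with 1 mouse left out, where fewer mice make overlap rarer.

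Of 2517 values of 140 genes under 18 alternatives, 10, in 4 genes, had the opposite sign. With the lowest adjusted p at 0.976 in edgeR, the side of the threshold says nothing of stability. Without low mDP PAC mouse 2 these were Slc6a14 at -0.12, Saa1 at -3.16 and Fut2 at -0.61. Saa1 was also at -2.17 and -1.21 in limma and -0.62 with the replicate block, and Duoxa2 at 0.04, 0.13, 0.03 and 0.18 without PAC mouse 1, 3, 4 and 5. Of 1134 list medians 1120 moved by less than the spread between mice. As each mouse was left out, Slc6a14 ranged from -0.12 to 4.91, Saa1 from -3.16 to 1.82, Duoxa2 from -1.16 to 0.18 and Fut2 from -0.61 to 0.96. The cause was not tested.

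The groups share mouse numbers, but a pairing by number was not shown. The correlation of deviations between mice of the same number was -0.272, 0.386, 0.0557, 0.0664 and 0.382, and only PAC mice 2 and 5 correlated best with their own number. The mean was 0.123 for the same number and -0.0307 for different numbers. So few pairs cannot exclude that some mice of a number shared conditions. A fit with the number as a block called 0 genes at an adjusted p under 0.05, with 190 higher and 281 lower at an unadjusted p under 0.05.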

Other observations

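Gm1987 and Ccl21a belong to a cluster of near-identical chemokine genes in which reads can be split between copies, so their values are uncertain. Gm1987 was listed at 45.2, 28.0, 0, 0 and 0.02 FPKM in low mDP PAC mice 1 to 5 and at 0 in all 5 water mice, while Ccl21a was at 0.94, 27.2, 75.5, 59.6 and 82.4 FPKM in low mDP PAC mice and at 42.4 to 128 FPKM in water mice. Low mDP PAC mice 1 and 2, with most Gm1987, had the lowest Ccl21a, and no fold change is given.

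Lep, leptin of fat cells, was at 0.22, 0.67, 0.58, 3.53 and 0.18 FPKM with water and 3.87, 1.00, 1.64, 3.67 and 2.96 FPKM with low mDP PAC. Only water mouse 4 was within the PAC range, and the log2 fold change of 1.27 ± 0.76 (SE) had an unadjusted p of 0.114 in edgeR. Me1, malic enzyme, which supplies NADPH for lipid synthesis, was at 7.0, 23.2, 53.9, 70.2 and 42.6 FPKM with water and 97.5, 14.4, 98.5, 45.2 and 40.8 FPKM with low mDP PAC, a spread within each group as wide as any difference between them.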
